A study of Mus musculus with 40 samples.

Results

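The growth hormone and STAT5 axis was described here through the corepressor sites around 10 mouse genes: Ghr, Jak2, Stat5a, Stat5b, Igf1, Igfals, Igfbp1, Socs2, Cish and Socs3. Chromatin immunoprecipitation followed by sequencing (ChIP-seq) located the corepressors SMRT and NCoR and the histone deacetylase HDAC3 on liver chromatin. Peaks were taken when their centre lay inside 1 of these genes or within 100 kb of it, which gave 44 of 10654 SMRT peaks, 134 of 35138 NCoR peaks and 67 of 14462 HDAC3 peaks. The livers came from male, ad libitum fed Bcl6 fl/fl mice of the C57BL/6 strain, in which the floxed Bcl6 alleles were intact because no Cre was present. Each cofactor list came from 3 libraries, with peaks found on pooled reads and then filtered on the counts of each library. The other 31 of the 40 samples, including the livers with hepatocyte deletion of Bcl6, were not analysed here. The lists held positions only. They gave no height, no value per replicate and no depth, so no difference between animals or feeding states could be tested, and the intervals below are exact 95% binomial intervals that cover counting error alone. Whole liver was used, so a site cannot be placed in 1 cell type.

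Growth hormone reaches the hepatocyte through its receptor, encoded by Ghr, and activates the kinase JAK2, which phosphorylates the transcription factors STAT5A and STAT5B. These enter the nucleus and bind elements of the form TTCNNNGAA, and their liver targets include Igf1, the growth factor that mediates much of postnatal growth, and Igfals, whose product holds circulating IGF1 in a stable complex. The SOCS family genes Socs2, Cish and Socs3 are also induced by STAT proteins and switch the receptor and kinase off again. BCL6, the repressor that the study was built around, recognises DNA that resembles STAT elements, and SMRT, NCoR and HDAC3 are corepressors that such repressors recruit.

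The sequences that the results turn on are those in which a STAT element lay under the corepressors. The element was searched as TTCNNNGAA, which reads the same on both strands, in the central 200 bp of each NCoR peak. A site where SMRT and HDAC3 peak centres both lay within 200 bp of the NCoR centre is called shared. The following stretches of 30 bases (GRCm38, plus strand, elements in capitals) come from the promoters of 3 member genes that carried a shared site with the element, and from an intron of Igf1 where an NCoR peak held a close pair. They were picked after their matches were seen.
Cish promoter, upstream pair, chr9:107296654-107296683: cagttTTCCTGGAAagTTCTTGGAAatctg
Cish promoter, downstream pair, chr9:107296762-107296791: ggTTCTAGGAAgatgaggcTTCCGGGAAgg
Socs2 promoter pair, chr10:95416899-95416928: ccgctTTCCAGGAActTTCCAGGAAtccgc
Igfals promoter, chr17:24878163-24878192: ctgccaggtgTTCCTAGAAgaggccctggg
Igf1 intronic pair, chr10:87902131-87902160: cagTTCTCAGAAaggaaaTTCGCAGAAgtg
The Cish promoter site held 4 elements in 200 bp, arranged as 2 pairs. The bases between the elements numbered 2 in the upstream pair and 8 in the downstream pair. At the Socs2 promoter the same string, TTCCAGGAA, occurred at both positions with 2 bases between. At the Igf1 intronic pair 6 bases lay between the elements. The Igfals element and 1 of the Igf1 elements printed next were the same string, TTCCTAGAA.

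For each member the shared site closest to its transcription start site (TSS) was also read over the 200 bp window, where the site was assigned to the gene, held the element and overlapped no annotated untranslated region (UTR). Ghr, Stat5b, Igf1, Socs2, Cish and Socs3 had such a site.
Ghr, chr15:3449620-3449819: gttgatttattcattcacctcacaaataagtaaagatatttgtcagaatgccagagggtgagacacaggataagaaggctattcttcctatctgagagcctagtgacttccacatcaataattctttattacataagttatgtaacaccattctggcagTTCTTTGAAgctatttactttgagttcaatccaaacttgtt
Stat5b, chr11:100842223-100842422: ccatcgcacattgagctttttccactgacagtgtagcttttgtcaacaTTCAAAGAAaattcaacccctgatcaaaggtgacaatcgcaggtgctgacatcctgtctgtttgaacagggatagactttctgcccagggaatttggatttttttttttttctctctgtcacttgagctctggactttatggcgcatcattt
Igf1, chr10:87906900-87907099: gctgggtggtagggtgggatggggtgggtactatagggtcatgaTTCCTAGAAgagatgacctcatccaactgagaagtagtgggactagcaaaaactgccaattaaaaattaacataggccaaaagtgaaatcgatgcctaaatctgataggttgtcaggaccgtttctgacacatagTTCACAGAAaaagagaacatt
Socs2, chr10:95426354-95426553: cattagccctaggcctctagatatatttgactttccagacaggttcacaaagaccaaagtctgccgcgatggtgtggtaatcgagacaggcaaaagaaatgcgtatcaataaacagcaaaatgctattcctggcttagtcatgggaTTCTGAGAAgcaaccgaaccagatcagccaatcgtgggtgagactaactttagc
Cish, chr9:107307967-107308166: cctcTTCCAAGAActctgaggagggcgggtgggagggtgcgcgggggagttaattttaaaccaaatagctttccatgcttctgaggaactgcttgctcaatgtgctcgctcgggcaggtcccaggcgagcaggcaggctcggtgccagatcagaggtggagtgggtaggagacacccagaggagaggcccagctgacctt
Socs3, chr11:117965230-117965429: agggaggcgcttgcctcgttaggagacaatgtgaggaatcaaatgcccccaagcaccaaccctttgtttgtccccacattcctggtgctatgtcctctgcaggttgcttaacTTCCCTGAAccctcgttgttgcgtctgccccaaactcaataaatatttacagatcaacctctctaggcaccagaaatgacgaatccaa
The Igf1 window held 2 elements, and each of the other 5 windows held 1. The Ghr, Stat5b, Igf1 and Socs2 windows lay in introns, although that at Socs2 was in an intron of the neighbouring transcript 5730420D15Rik. The Cish and Socs3 windows lay outside transcripts of the basic annotation, at 11356 bp and 3857 bp along the strand from the nearest start of the gene.

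An NCoR peak stood at a promoter of every member gene. With a promoter taken from 1000 bp before to 100 bp after any annotated start of the gene, 10 of 10 members had an NCoR peak centre at a promoter of their own, against 16.9% of all 21938 protein-coding genes. Stat5a, Igfals, Igfbp1, Socs2 and Cish (5 of 10) had a shared site there, against 2.34% of protein-coding genes. Igfals, Socs2 and Cish (3 of 10) had a shared promoter site that also held a STAT element, which was the case at 32 protein-coding genes in the genome, or 0.146%. At Ghr, Jak2, Igf1 and Socs3 the promoter peaks were NCoR-only, meaning that neither partner lay within 200 bp, and Stat5b carried an NCoR-only peak at its upstream start and an NCoR and HDAC3 peak at its inner start. The background here and below is all protein-coding genes and includes those silent in liver, so a share above it does not set these genes apart from other genes that liver uses. When only the outermost start of each gene was used, 7 members kept an NCoR peak and 3 a shared site at the promoter. Those 3 shared sites were at Stat5a, Igfbp1 and Cish and held no STAT element. The shared sites with an element at Igfals, Socs2 and Cish lay more than 100 bp inside the outermost start and no longer counted. No share of all protein-coding genes is given for this rule. The 250 bases before the RefSeq start were also read for the 9 members that had one. No NCoR peak overlapped them at Ghr, Stat5a, Igf1 or Igfals. Only the Socs3 stretch held a STAT element, as did 7.02% of 32851 RefSeq promoters.

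Across the windows the NCoR sites were spread over the 4 classes much as in the whole list, with more NCoR and HDAC3 pairs. Shared sites made up 36 of 134 NCoR peaks (26.9%, interval 19.6 to 35.2), against 24.9% of all NCoR peaks. NCoR-only peaks made up 63 (47.0%, 38.3 to 55.8), against 56.1%. A further 29 (21.6%, 15 to 29.6) had HDAC3 but no SMRT, against 14.8% of all, and 6 (4.48%) had SMRT but no HDAC3, against 4.16%. The whole-list shares of shared sites and of NCoR and SMRT sites lay inside the members' intervals, and those of the other two classes lay just outside. At the 36 shared sites the median distance from the NCoR centre was 19 bp (1 to 91) to the SMRT centre and 16.5 bp (2 to 71) to the HDAC3 centre. As in the whole lists, few partner peaks stood without NCoR. Among SMRT peaks 1 of 44 (2.27%, against 3.35% of all SMRT peaks) was alone, in a coding exon of Stat3, and 1 was joined only by HDAC3, in an intron of Adcy1. Among HDAC3 peaks 1 of 67 (1.49%, against 2.95%) was alone, at chr17:24878625-24878837 in the UTR of Igfals, 473 bp past its start and beside the shared promoter site.

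**Figure D1:**
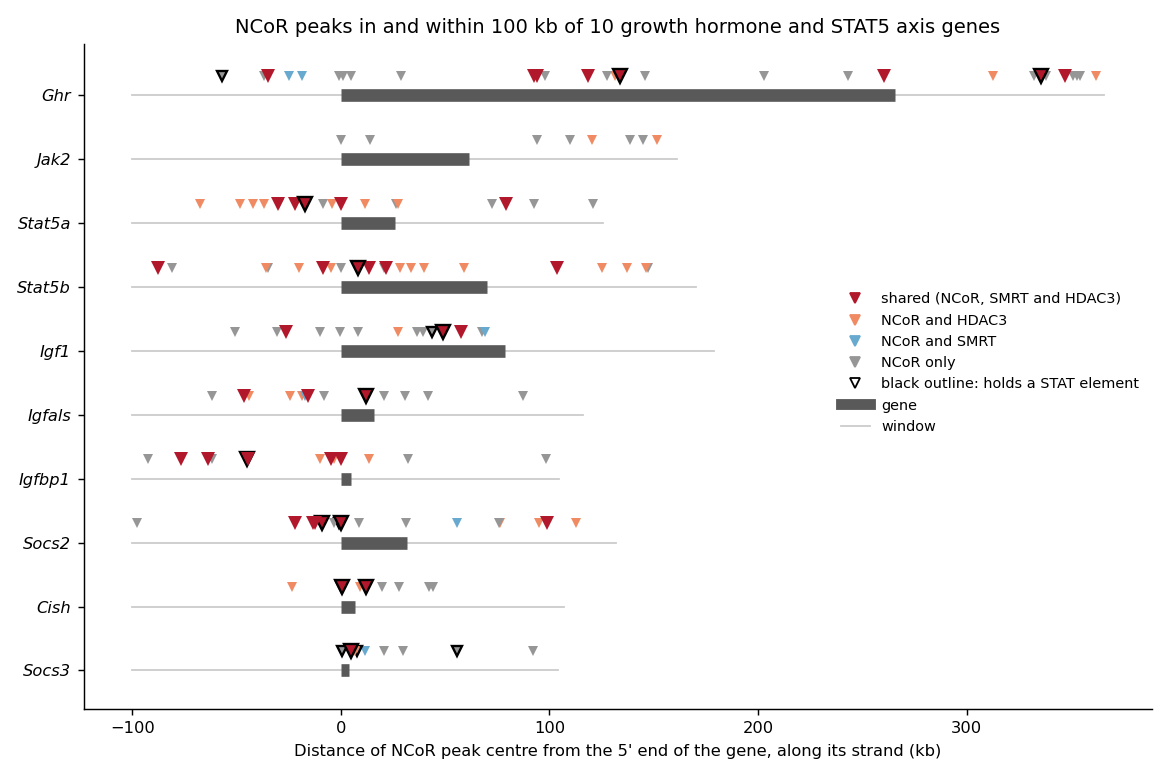
Each triangle is an NCoR peak placed by the distance of its centre from the 5′ end of the gene in kb, along the strand of the gene, for the 10 member genes (dark bars) and the 100 kb to either side (thin lines). Colours give the class by partners within 200 bp and a black outline a STAT element. Cish, Socs2 and Socs3 each have outlined peaks at or near the 5′ end, while Stat5b and Igf1 carry theirs within the gene, Ghr has them within the gene and on both sides of it, and Jak2 has no shared site. The annotated Igfals gene begins upstream of its basic start, so its promoter peak lies to the right of 0.

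The windows were dense in all 3 cofactors. Merged where they overlapped, they formed 9 stretches of 2.37 Mb in all, with 56.5 NCoR peaks, 18.5 SMRT peaks and 28.2 HDAC3 peaks per Mb, against 13.3, 4.02 and 5.46 per Mb over the known bases of the genome. A member window held a median of 13.5 NCoR peaks (8 to 29) and 4 shared sites (0 to 8), and the median protein-coding gene had 5 and 1 under the same rule. The genome figures per Mb include stretches far from any gene, which the windows leave out by their rule. Since long genes have long windows, the density was also taken per 100 kb of window for every protein-coding gene. The median was then 6.12 NCoR peaks and 1.58 shared sites for the members, and 1.915 and 0.349 for all genes. A shared site was present in the window of 9 of 10 members, against 52.9% of protein-coding genes. By the nearest TSS, 10 of 10 members held at least 1 NCoR peak, against 49.1%, and 9 of 10 held a shared site, against 20.9%. Jak2 was the exception in both counts of shared sites.

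**Figure D2:**
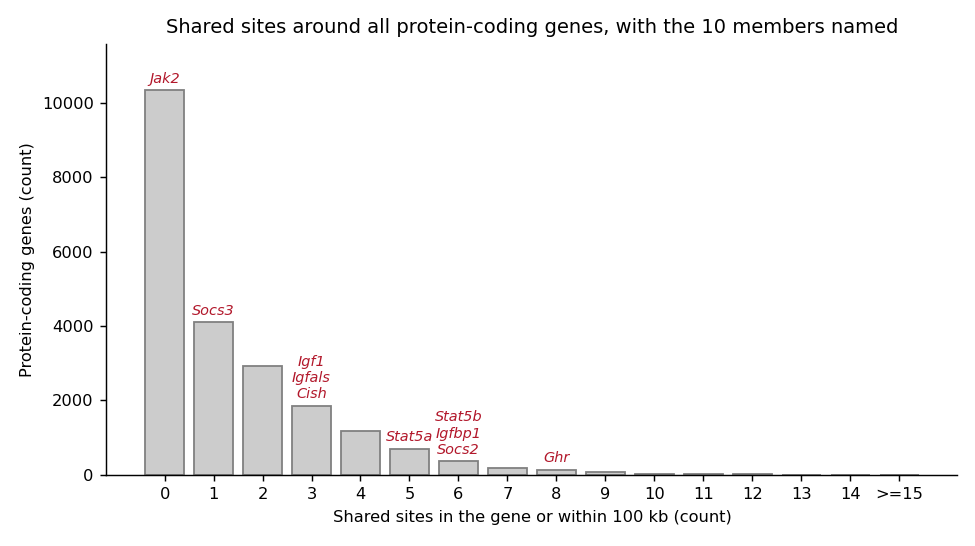
Grey bars count the 21938 protein-coding genes by the number of shared sites in the gene or within 100 kb, and the member genes are named above the bar that holds them. Ghr, with 8 shared sites, lies farthest to the right, Stat5b, Igfbp1 and Socs2 follow with 6, and Jak2 stands among the genes with 0.

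Ghr, the growth hormone receptor gene on the minus strand at chr15:3317760-3583492, held 29 NCoR, 10 SMRT and 11 HDAC3 peaks in its window, the most NCoR and SMRT peaks of any member. Its 8 shared sites were matched or passed by 1.22% of protein-coding genes. The gene is long, and per 100 kb of window its 1.72 shared sites were matched or passed by 9.40%. Of the 19 NCoR peaks for which Ghr had the nearest TSS, 6 were shared, 10 were NCoR-only, 2 had SMRT and 1 had HDAC3. The shared sites included 4 in introns around the inner start at position 3471644, at 6576, 21925, -17720 and -19414 bp from it, where a negative value is upstream. The site at 21925 is the one printed above. An NCoR-only peak occupied a promoter at -390 bp, and another with a STAT element lay at -57027 bp. Inside the same window 9 NCoR peaks were nearest to Selenop, the selenium transport protein gene. One of its 2 shared sites, at chr15:3247568-3247796, held a STAT element.

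Jak2, the kinase gene at chr19:29251828-29313080, had the fewest NCoR peaks in its window and no shared site there. The window held 8 NCoR peaks, 2 HDAC3 peaks and no SMRT peak, and its 2 nearest NCoR peaks, at -160 bp and at 13250 bp in an intron, were both NCoR-only. No peak in its window held a STAT element. A shared site stood just beyond the window, with its centre 105837 bp from the gene.

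Stat5a (plus strand, chr11:100859351-100885169) and Stat5b (minus strand, chr11:100780731-100850724) are neighbours transcribed away from each other, and 16 NCoR peaks fell in both windows. Of the 13 NCoR peaks nearest to either gene 6 (46.2%, 19.2 to 74.9) had HDAC3 without SMRT, against 14.8% of all NCoR peaks, and none had SMRT without HDAC3. The share was 3 of 21 (14.3%, 3.05 to 36.3) both for the secreted IGF system and for the feedback inhibitors. For the receptor and kinase it was 1 of 21 (4.76%, 0.12 to 23.8). All of these intervals overlap that of the pair. Stat5a had 1 shared site among its 5 nearest NCoR peaks, 83 bp past its first start. Stat5b had 3 shared sites among its 8, all intronic, and that at 8402 bp held the only STAT element at either gene. Both windows also reached Stat3, the mediator of interleukin-6 signalling, which had 1 shared site among 3 nearest NCoR peaks, 1029 bp past its start.

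Igf1 (plus strand, chr10:87858265-87937042) was nearest to 18 NCoR peaks, 6 of them shared, a number of shared sites that 0.675% of protein-coding genes matched or passed. In its window lay 14 of these, with 3 shared sites at -26098, 45670 and 54676 bp from the nearest start. The shared site at 45670 held 2 STAT elements. An NCoR-only peak 40840 bp from the same start held the close pair printed above. The remaining 4 nearest peaks lay beyond the window, 139651 to 153913 bp upstream of the gene. Of these, 3 were shared without an element, and 1, joined by HDAC3, held 2 elements at chr10:87718500-87718728. Igf1 has 7 annotated starts, and its only promoter peak was NCoR-only, at -496 bp from the outermost of them. The 250 bases before its RefSeq start, chr10:87860861-87861110, overlapped no peak of any of the 3 cofactors.

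Igfals, the acid-labile subunit gene at chr17:24865997-24882010, was nearest to a single NCoR peak. That peak, chr17:24878100-24878328, was the shared promoter site, at -44 bp. The other NCoR peaks of its window were assigned to its neighbours Fahd1, Meiob and further genes. At this site the SMRT and HDAC3 centres lay 91 and 71 bp upstream of the NCoR centre, the widest offsets among the 36 shared sites.

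Igfbp1, the gene for an IGF binding protein that insulin represses, sits at chr11:7197782-7202546 and had a shared site at -165 bp. No STAT element lay in it. The 240 bases before the annotated start are shown because this peak covered most of them and because the promoter contains the response sequence through which insulin acts. The core searched was CAAAACA on either strand, chosen after the peak was seen, and 5.30% of 32851 RefSeq promoters held it in the same stretch.
Igfbp1, chr11:7197542-7197781: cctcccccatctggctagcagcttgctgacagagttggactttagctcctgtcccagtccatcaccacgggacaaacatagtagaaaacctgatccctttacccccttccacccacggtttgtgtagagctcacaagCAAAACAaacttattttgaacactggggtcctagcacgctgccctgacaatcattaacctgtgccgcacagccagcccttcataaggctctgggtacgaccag
The single match began at -103 bp. Of the 6 shared sites in the Igfbp1 window, 4 were nearest to the predicted gene Gm11985 and 1 to Adcy1, and 4 of those 5 lay in introns of Adcy1. The site at chr11:7152486-7152714 held a STAT element.

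Among the feedback inhibitors, Socs2 and Cish carried the promoter sites with the most elements of any member, while the Socs3 promoter peak held 1, as that of Igfals did. Socs2 (minus strand, chr10:95385362-95417180) was nearest to 9 NCoR peaks, 5 of them shared, a number that 1.26% of protein-coding genes matched or passed. The promoter site at -50 bp, chr10:95416793-95417021, had its SMRT and HDAC3 centres 3 and 10 bp away and its 2 elements at 1 and 12 bp from the NCoR centre. A run of 4 shared sites followed upstream at -9596, -12486, -13624 and -22250 bp, and the first of these held an element. Between them and the promoter an NCoR and HDAC3 peak at -1126 bp held 1 element, the only peak of that class with an element inside the 100 kb windows. The other named neighbour in this window, Cradd, which encodes a death domain adaptor, was nearest to 6 NCoR peaks and 1 shared site.

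Cish (plus strand, chr9:107296026-107302784) was nearest to 5 NCoR peaks, and 3 of them were shared. The first, at chr9:107295993-107296221, lay 81 bp past the outer start and held no element. The second, at chr9:107296595-107296823, was centred at -1 bp from the inner start, with elements at -46, -35, 59 and 76 bp from its centre, so the elements flanked the centre on both sides. The third, at 11356 bp, held 1 element.

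Socs3 (minus strand, chr11:117966079-117970047), which is best known as a brake on interleukin-6 signalling, differed from Socs2 and Cish. It was nearest to 7 NCoR peaks, of which 4 were NCoR-only and 1 was shared, 3857 bp from its start. Elements were present in that shared site and in 2 NCoR-only peaks, at the promoter (-134 bp) and at 6840 bp. Its window held 1 shared site, a number that 52.9% of protein-coding genes matched or passed.

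**Figure D3:**
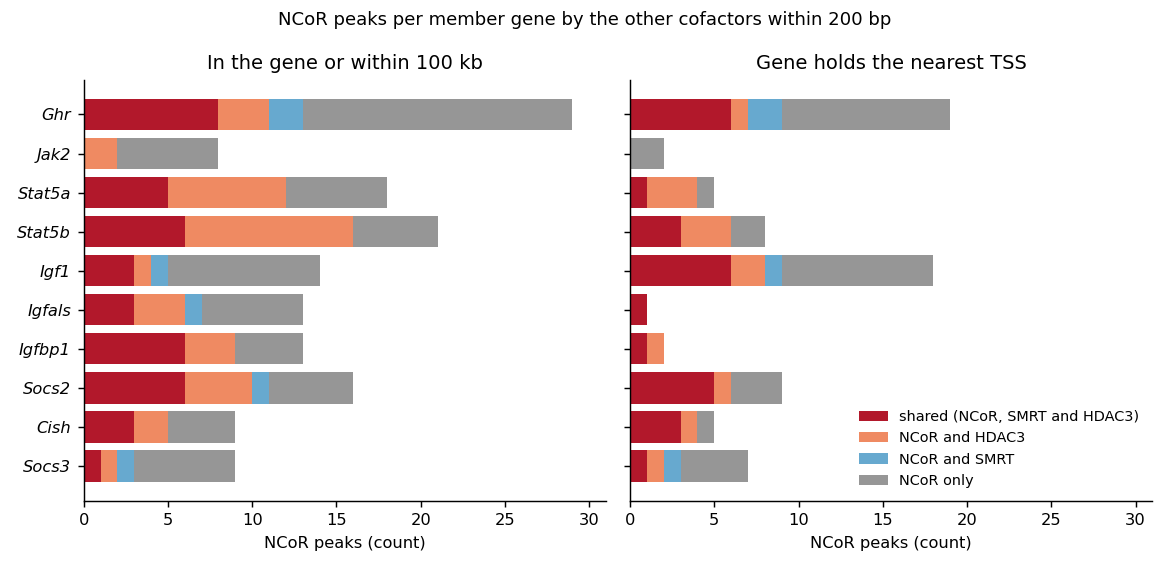
Stacked bars count NCoR peaks per member gene by class, at left for peaks in the gene or within 100 kb and at right for peaks whose nearest TSS belongs to the gene. Ghr leads at left with 29 peaks and at right with 19, and Igfals and Igfbp1 shrink to 1 and 2 peaks at right because their neighbours hold the nearest starts. Stat5a and Stat5b share 16 peaks at left.

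By role, shared sites made up 9 of 21 NCoR peaks nearest to the feedback inhibitors (42.9%, 21.8 to 66.0), 8 of 21 for the secreted IGF system (38.1%, 18.1 to 61.6), 4 of 13 for the transcription factors (30.8%, 9.09 to 61.4) and 6 of 21 for the receptor and kinase (28.6%, 11.3 to 52.2). These intervals overlap widely, and each contains the whole-list share. Over the 76 NCoR peaks nearest to any member the shared portion was 35.5% (24.9 to 47.3). Within the windows a member had the nearest TSS for 70 of 134 NCoR peaks (52.2%) and for 23 of 36 shared sites, and the rest belonged to neighbours.

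STAT elements were commoner in the members' shared sites than in shared sites at large. Of the 36 shared sites 11 (30.6%, 16.4 to 48.1) held the element, against 7.75% of 8739 shared sites in the genome. NCoR-only peaks stayed near their whole-list value, with 5 of 63 (7.94%, 2.63 to 17.6, against 6.52%). The element was found in 1 of 29 NCoR and HDAC3 peaks (3.45%, 0.0873 to 17.8, against 8.08%). It was found in 0 of 6 NCoR and SMRT peaks (0 to 45.9, against 6.91%). Counts of 1 and 0 are too small to place these classes above or below their whole-list values. Over all classes 17 of 134 member peaks (12.7%, 7.57 to 19.5) held the element, against 7.07% of all NCoR peaks. At least 2 elements were found in 4 of 134, at Igf1 (2 peaks), Socs2 and Cish, against 0.327% of NCoR peaks. In windows placed 2 kb to either side of the member shared sites 8 of 72 (11.1%, 4.92 to 20.7) held the element, against 6.26% around all shared sites. The elements lay mostly in peaks assigned to the member genes. Peaks nearest to a member held the element in 14 of 70 cases (20%, 11.4 to 31.3), and peaks of the same windows nearest to another gene in 3 of 64 (4.69%, 0.977 to 13.1). The 2 intervals overlap between 11.4% and 13.1%, and the difference was given no test because neighbouring sites are not independent and the genes were chosen as STAT5 targets and partners.

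**Figure D4:**
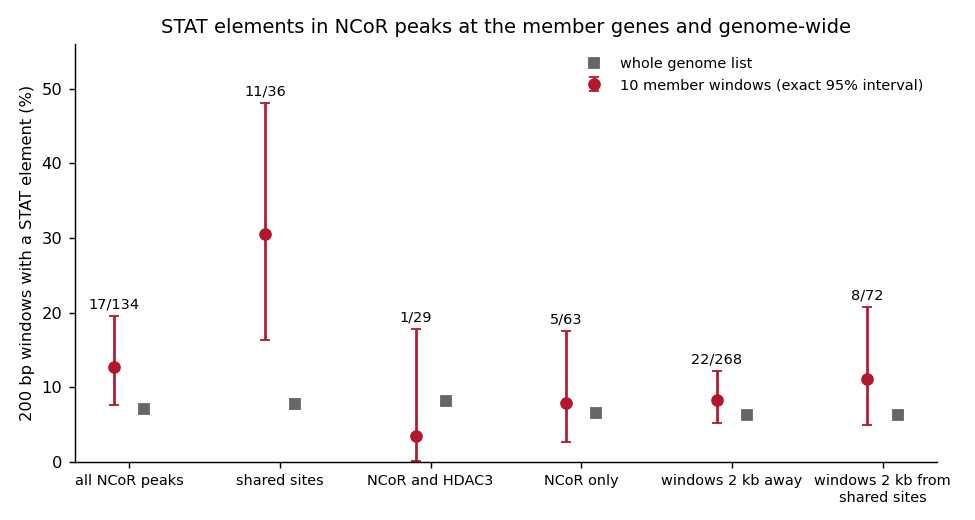
Red points give the percentage of 200 bp windows with a STAT element at the 10 member genes, with exact 95% intervals and the counts above, and grey squares give the same percentage for the whole list. The shared sites stand at 30.6% against 7.75%, while the NCoR-only peaks and the windows 2 kb from all NCoR peaks lie close to their grey squares. The windows 2 kb from shared sites stand higher than theirs, at 11.1% (4.92 to 20.7) against 6.26%. That interval contains the whole-list value and overlaps the interval of the shared sites.

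The motifs of the main liver factors lay closer to their whole-list shares. FOX (TGTTTAC) was found in 10 of 134 member peaks (7.46%, against 7.74% of all NCoR peaks), HNF6/CUX2 (TATNGAT) in 11 (8.21%, against 8.41%), C/EBP (TTNNGCAA) in 24 (17.9%, against 19.1%) and the HNF4 half-site (CAAAGTCCA) in 3 (2.24%, against 2.10%), each searched on both strands. In all 4 the whole-list share lay inside the members' interval. The glucocorticoid receptor element was found in 1 of 134 (0.746%, 0.0189 to 4.09, against 0.165%). Within the 36 shared sites FOX was found in 5 (13.9%, 4.67 to 29.5, against 9.93% of all shared sites), HNF6/CUX2 in 5 (13.9%, against 11.5%), C/EBP in 10 (27.8%, 14.2 to 45.2, against 24.7%), the HNF4 half-site in 1 (2.78%, against 2.33%) and the glucocorticoid receptor element in 0, and each whole-list share again lay inside the interval. The GC content was close as well, with a median of 47.5% in member peaks and 48.0% in all. The member peaks lay nearer to starts, at a median of 12082 bp from the nearest TSS against 18212 bp, and 24 of 134 (17.9%, 11.8 to 25.5) were at a promoter of some gene, against 12.8% of NCoR peaks. Among shared sites 7 of 36 (19.4%, 8.19 to 36.0) were at a promoter, against 8.19%. The windows were drawn around genes and so leave out peaks far from any gene, which the whole list keeps. The shorter distance and the higher promoter shares therefore cannot be told apart from the way the peaks were chosen.

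Beyond the members, 37 further genes of the pathway were counted by the nearest TSS. By this rule 34 of 37 held at least 1 NCoR peak, against 49.1% of all protein-coding genes, with 184 peaks in all. A shared site was held by 17 of 37, against 20.9%, with 53 in all. The sex-biased liver genes, whose bias follows the pattern of growth hormone release, had a shared site in 7 of 9 cases, and the factors linked to STAT5, Onecut1 and Bcl6, in 2 of 2. The other STAT genes had one in 2 of 5 cases, the other receptors and kinases in 2 of 6, the IGF binding proteins in 2 of 6 and the phosphatases in 2 of 4. By window a shared site was present at 33 of the 37 genes, against 52.9%. These included 5 of 5 STAT genes, 6 of 6 receptors and kinases, 6 of 6 IGF binding proteins and 3 of 4 phosphatases. By the nearest TSS the 5 other SOCS genes had 6 NCoR peaks between them and no shared site, and Socs2, Cish and Socs3 together had 9 shared sites. Since only 20.9% of all protein-coding genes hold one, 0 of 5 genes does not set these genes apart from the rest. The difference in shared sites was smaller by window. There 2 of the 5 other genes held 3 shared sites each and the rest none, against 6 for Socs2, 3 for Cish and 1 for Socs3. The genes with the most shared sites were Prlr, the prolactin receptor gene, with 9 of 17 NCoR peaks, Onecut1, which encodes HNF6, with 8 of 18, and A1bg, a female-biased plasma protein gene, with 5 of 7. Bcl6 (5 of 20) and the phosphatase gene Ptpn1 (5 of 16) tied with A1bg. The A1bg window held 3 shared sites, and those of Bcl6 and Ptpn1 held 6 and 7. Prlr exceeded each of the 10 members, of which Ghr and Igf1 had the most, with 6 each.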

How the data were processed

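Per the labels, SMRT, NCoR and HDAC3 ChIP-seq was done on 3 libraries each. The authors aligned single-end reads to mm10 with Bowtie and called peaks on pooled replicates against input with HOMER. They filtered the peaks with DESeq2 on the counts of each library, and deposited positions (chromosome, start, end) without any score or count. The lists carry no depth per sample. All peaks lay inside the GRCm38 chromosome lengths.

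Positions were joined to GENCODE M21 (basic transcripts) and the GRCm38.p6 sequence with Python 3.11.15, pysam 0.24.0 and SciPy 1.17.1. Each peak went to the coding gene whose TSS lay closest. Class came from partner centres within 200 bp and motifs from the central 200 bp. Functions were tested on simulated peaks. The members and gene lists were chosen with earlier results of these data known. Named besides the members were coding genes nearest to 5 or more NCoR peaks in the windows, Stat3, and the 3 pathway genes richest in shared sites (ties in alphabetical order). Genes tied with the last of these are named too. Genes mentioned as neighbours of 1 site, and the Igfbp1 core, were chosen after their values were seen. Alternatives changed the window, the partner distance, the start sites, the promoter and the motif. No test was run, since the lists hold no value per replicate. A RefSeq promoter was available for 9 of 10 members. The other samples were not analysed here.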

Additional observations from a re-analysis of the deposited data

How the results depend on the processing

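Of 46 recomputed summary values 36 stayed within the interval of a share or within 1.5 times a count, and 10 moved. With windows of 50 kb, 68.0% of NCoR peaks were nearest to a member, and with the starts of every gene type 33.6%. Taking instead the peaks whose nearest gene is a member gave 76 NCoR and 41 HDAC3 peaks, 35.5% shared and 19.7% with a STAT element. A promoter of 5000 bp to either side held 35.1% of NCoR peaks, with no share of all NCoR peaks given for that width. In the central 100 bp the STAT share fell to 6.72% (all NCoR peaks 3.47%), and in shared sites to 13.9% (5 of 36, interval 4.67 to 29.5, against 3.75% of all shared sites). With 1 start a gene, 3 members had a shared promoter site, and no site among these held a STAT element. The stricter STAT strings gave 22.2% of member shared sites against 4.42%, and removing repeat-masked bases 27.8% against 6.68%. Shared sites per gene kept within 1.5 times in 35 of 40 recounts, and the 5 others came from nearest-gene assignment, which left Stat5a, Igfals and Igfbp1 with 1 each and Stat5b with 3, and raised Igf1 to 6. The alternatives for the members' own promoters and for STAT elements in shared sites were chosen after seeing the data.

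No paired analysis was possible because the 3 libraries of a cofactor came as 1 merged list. Depth is unknown, so an absent peak, as for SMRT at Jak2, shows only that none was listed, and a site present in 1 list and missing from another can reflect unequal sensitivity of the 3 assays. A consensus match is no evidence that a STAT protein or BCL6 bound there, and no list for either was used here. The nearest TSS need not mark the gene that a site acts on.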
